A study of Mus musculus with 4 samples.

Results

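The genes of CTCF and of the cohesin complex were examined in the chromatin accessibility data of control and Cpt1a-KO hematopoietic stem cells. Ctcf, the 3 genes of the cohesin ring (Smc1a, Smc3 and Rad21), the genes of its alternative STAG subunits (Stag1 and Stag2), the loader gene Nipbl and the genes of the release and regulatory factors (Wapl, Pds5a and Pds5b) were taken by name, and every ATAC-Seq peak from 5000 bp before to 5000 bp after each gene body was assigned to it. Overlapping peaks of the 4 libraries were merged into regions. The 10 genes held 180 of the 337776 regions on the autosomes and X, and 70 of the 137553 that 2 or more libraries shared. The 10 genes are among 21627 protein coding genes of the mouse gene table used.

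In ATAC-Seq a transposase inserts adapters where chromatin is open, and peaks are the stretches where insertions pile up. Control libraries came from Cpt1a fl/fl mice (given as WT in the sample labels), whose Cpt1a gene carries loxP sites but is intact. KO libraries came from Cpt1aΔ/Δ mice, in which Cre under the Vav1 promoter removed the floxed Cpt1a sequence throughout the blood system, so the deletion was not limited to stem cells. Cpt1a encodes the enzyme that passes long-chain fatty acids to the mitochondrial import machinery. All mice were adults on the C57BL/6, CD45.2 background, without any treatment named for these samples, and both sexes were used in the study. The sex behind each library is not given in the sources used here, which bears on the X-linked genes Smc1a and Stag2. The cells were sorted from bone marrow and are given as long-term HSCs in the labels and as HSPCs in the paper. Nothing in the labels says that the 2 libraries of a genotype came from separate mice. The p-values below therefore measure only the spread between these libraries, and those of limma pool it over all regions tested.

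CTCF is a zinc finger protein that binds a long DNA motif at domain borders and insulators. Cohesin is a ring of SMC1A, SMC3 and RAD21, with STAG1 or STAG2 as the fourth subunit, which extrudes DNA loops until it meets CTCF. NIPBL loads cohesin and drives extrusion, while WAPL, together with PDS5A or PDS5B, releases it from DNA. In blood, loss of cohesin subunits or of CTCF alters stem cell self-renewal, and STAG2, RAD21, SMC3 and SMC1A are recurrently mutated in myeloid leukemia.

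Promoter windows, from 250 bp before to 50 bp after the gene start, were taken from RefSeq for 7 of the 10 genes (Ctcf, Smc1a, Smc3, Stag1, Wapl, Pds5a and Pds5b) on GRCm38.p6, whose coordinates are those of mm10. Rad21, Stag2 and Nipbl were not matched. The bases before the start of 4 genes are shown because they span the order of promoter accessibility reported next: Smc3 had the most accessible promoter, Ctcf and Pds5a had the least accessible of the 7, and Smc1a shares a region with a divergent gene. Capitals mark the letters GGGCGG (the SP/KLF motif) or CCAAT (the CCAAT box) on either strand, so that CCGCCC and ATTGG are the same motifs read from the other strand. Stretches that the gene table places inside the same gene were left out, as were those beyond the promoter-window start of the divergent gene. Each sequence runs 5′ to 3′ in the direction of its own gene. Smc3, Ctcf and Smc1a lie on the plus strand and Pds5a lies on the minus strand.
Smc3, chr19:53600146-53600395: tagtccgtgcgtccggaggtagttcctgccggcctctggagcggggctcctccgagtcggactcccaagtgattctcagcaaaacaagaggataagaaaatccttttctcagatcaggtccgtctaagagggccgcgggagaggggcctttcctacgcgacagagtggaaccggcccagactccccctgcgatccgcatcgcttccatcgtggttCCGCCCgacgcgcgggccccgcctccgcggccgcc
Ctcf, chr8:105636288-105636473: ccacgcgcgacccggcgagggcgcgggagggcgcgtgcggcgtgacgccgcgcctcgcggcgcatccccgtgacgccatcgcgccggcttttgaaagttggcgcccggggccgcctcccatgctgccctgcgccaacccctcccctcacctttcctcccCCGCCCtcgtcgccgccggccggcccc
Smc1a, chrX:152016296-152016427: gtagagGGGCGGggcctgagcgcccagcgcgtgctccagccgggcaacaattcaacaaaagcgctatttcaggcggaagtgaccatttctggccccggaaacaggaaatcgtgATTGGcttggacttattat
Pds5a, chr5:65698237-65698486: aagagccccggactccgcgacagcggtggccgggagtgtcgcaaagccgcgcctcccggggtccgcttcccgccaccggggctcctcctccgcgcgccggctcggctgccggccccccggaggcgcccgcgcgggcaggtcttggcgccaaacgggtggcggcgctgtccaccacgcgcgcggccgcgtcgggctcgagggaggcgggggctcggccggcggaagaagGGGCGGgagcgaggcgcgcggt

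All 7 promoter windows held GGGCGG, which 35.9% of the 27025 promoters of the table and 66.0% of the 11067 protein coding promoters open in every library also held. Stag1 had 4 matches, Pds5b had 3, and each of the other 5 had 1. CCAAT was found in 4 of the 7 (Smc1a, Stag1, Wapl and Pds5b), against 37.9% of all promoters. GAGGAAG, the core of a PU.1-like motif, was found in Wapl alone and in 13.5% of all promoters. The ETS letters CCGGAAG, the NRF1 letters GCATGCGC, the YY1 letters AAGATGGC and the E-box CACGTG were in none of the 7 windows. These letters were in 9.12%, 2.81%, 2.88% and 7.24% of all promoters, respectively. The CTCF consensus of the study's motif table, allowing 4 mismatches over 20 positions, was matched in 0 of the 7 windows and in 0.629% of all promoters. None of the searched strings contains another, although CCGGAAG and GAGGAAG share their last 5 letters. The promoter windows were rich in G and C, with a median of 73.7% against 61.3% over the promoters open in every library and 52.7% over all promoters. Pds5a was highest at 80.3%, above 99.1% of all promoters, with 55 CG dinucleotides in the window. Smc1a was lowest of the 7 at 58.3%, with 23.

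The lists gave no read counts, so depth is unknown. They held 240940 to 277594 summits per library, and no summit had a −log10 p below 2.0. The value used here is the fold, the authors' ratio of summit signal to that library's background, taken at the highest summit of a region. The percentile of a region is the rank of that fold among all regions with a peak in the same library, so that 99 stands near the top of its own library. Of 9 stem cell marker genes with a promoter window, 8 had a peak there in every library and Hoxa9 had none in any. Peaks at markers of other blood cells were found too, at 2 of 2 B cell markers and at 1 to 2 of 4 T cell markers per library, with median percentiles of 28.1 to 57.1 against 77.1 to 85.3 for the stem cell markers. Erythroid markers had a promoter peak at 1 of 3 genes in each control library and at 0 in the KO libraries, at percentiles of 9.69 and 32.9 in the controls. Granulocyte and monocyte markers had one at 2 to 3 of 4 genes, with medians of 44.6 to 64.4. The part of other cells in the results below was not tested. The deleted gene Cpt1a kept an open promoter, at percentiles of 83.7 and 79.9 for control and 84.1 and 88.4 for KO. Both KO values were the higher ones. Of 18 Cpt1a regions found in 2 or more libraries, 2 had peaks in control alone and 0 in KO alone, against 6.05% and 3.47% of all such regions.

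Every one of the 7 genes with a promoter window had a region there in all 4 libraries, as did 64.1% of 17273 protein coding genes. The median percentile of these 7 promoter regions was 97.5, against 94.7 over the 11067 promoters with a region in every library. Smc3 was at the top with a mean percentile of 99.6, above 97.1% of these promoters. Pds5b (98.3), Wapl (98.1) and Smc1a (97.5) followed, and their ranges over the 4 libraries overlapped, so these 3 were not told apart in order. Stag1 came next at 96.1, below every library's value of Smc1a. Ctcf (92.7) and Pds5a (92.5) overlapped each other, and they stood above only 41.0% and 40.2% of the promoters open in every library. The order compares the highest fold of regions that differ in width and number of summits, and it says nothing of expression.

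**Figure D1:**
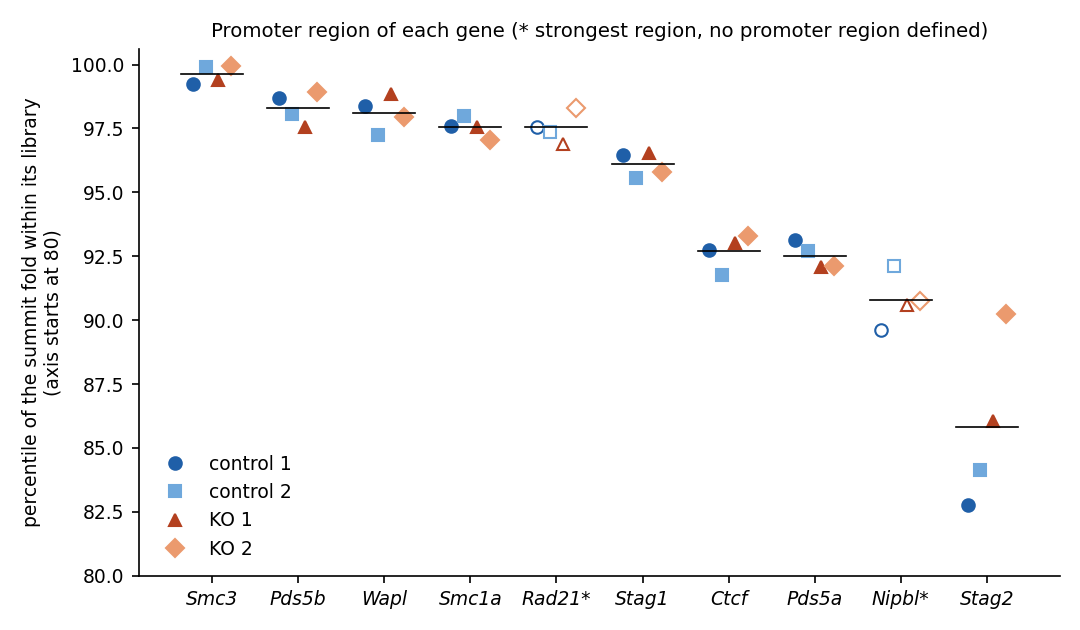
Percentile of the highest summit fold within its own library (vertical axis, from 80 to 100, no unit) for the promoter region of each gene, with 1 point per library (blue for control, orange for KO) and a line at the mean of the 4. Open points mark Rad21 and Nipbl, for which the strongest region is drawn because no promoter region was defined. Smc3 lies at the top in all 4 libraries, and Stag2 is the lowest and the most spread, from 82.8 to 90.2.

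Regions with a peak in all 4 libraries are called shared in what follows. Ctcf (chr8:105636474-105682922) held 9 regions, of which 3 were in all 4 libraries, 3 in 3 libraries and 3 in 1 library. Its promoter region (chr8:105635975-105637260) covered the gene start at 105636538 and lay within the overlapping lncRNA gene Gm5914. Its fold was 12.4 and 12.3 in the controls against 12.6 and 11.9 in the KO libraries. The raw folds overlapped between the genotypes. After quantile normalization, which gives the 4 libraries the same distribution of folds, the KO values lay just above the controls. The difference was 0.06 ± 0.16 on the log2 scale (SE, n = 2 per genotype, limma adjusted p = 0.955). Each SE here and below is the one limma fits, which draws on the spread of all regions tested. It can therefore be wider than the spread of a region's own values, as it was here.

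The other shared regions of Ctcf lay inside the gene and past its end. A region inside the gene, over the pseudogene Gm5915 (chr8:105661071-105661485) had folds of 7.80 and 11.6 in the controls against 7.82 and 5.70 in the KO libraries. Control 2 was high and KO 2 low, and the genotypes overlapped after normalization, with a difference of −0.40 ± 0.24 (limma adjusted p = 0.737). A region past the end of the gene (chr8:105685587-105686956) spanned the start of the neighbouring gene Carmil2 and reached folds of 11.6, 12.9, 14.5 and 10.7 in control 1, control 2, KO 1 and KO 2. Its folds were like those of the Ctcf promoter, and it cannot be assigned to one of the 2 genes. All 3 Ctcf regions seen in 3 libraries lacked a peak in KO 2 alone, at folds of 1.88 to 4.23 in the other libraries.

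Smc1a and Smc3 encode the coiled-coil ATPases of the ring. The Smc1a promoter region (chrX:152016112-152017189) also holds the start of Ribc1, which is transcribed the other way from 152016295, against 152016428 for Smc1a, and the peak cannot be assigned to one of the pair. In the gene table Ribc1 reaches 152016886, past the Smc1a start, so the Smc1a bases printed above lie within its bounds. The fold of the promoter region was 18.0 and 18.8 in the controls against 18.1 and 16.0 in the KO libraries. Only KO 2 stood lower, and the difference was −0.07 ± 0.12 (limma adjusted p = 0.923). The 45546 bp Smc1a gene had only 1 other region in all 4 libraries, a weak one past its end (chrX:152065750-152065986) with folds of 2.97 to 4.23.

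Smc3 (chr19:53600396-53645831) had the strongest promoter region of the set (chr19:53599831-53601031). Its fold was 21.8 in control 1, 26.1 in control 2, 22.4 in KO 1 and 25.4 in KO 2. The second library of each genotype was higher than the first, so the genotypes overlapped, and the difference was 0.03 ± 0.11 (limma adjusted p = 0.971). A region past the end of the gene (chr19:53648507-53649586) had folds of 10.4, 13.1, 9.48 and 13.0, where the second library of each genotype was again the higher one. An internal region (chr19:53638087-53638553) reached 7.41 in control 2 and 7.82 in KO 1 but only 3.58 in control 1 and 4.07 in KO 2, and its difference of 0.22 ± 0.35 was within that spread. Smc3 held 12.6 regions per 100 kb in at least 2 libraries, the highest density of the 10 genes.

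Rad21 (chr15:51962604-51993538), the kleisin that closes the ring, had no region within 1000 bp of either end of its gene body, so no promoter region was defined for it. Only the outer ends were searched, so an open promoter at a start inside the gene body would be missed. The strongest Rad21 region (chr15:51991010-51992184) lay inside the gene near its upper end, over the predicted gene Gm52217. Whether this region holds the Rad21 promoter was not tested. The folds there were 18.0, 17.8, 17.0 and 18.1, among the most even of the set, and the difference was 0.01 ± 0.12 (limma adjusted p = 0.99). The only other region in all 4 libraries (chr15:51980560-51980816) was weak, with folds of 2.85 to 3.58.

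Stag1 and Stag2 encode the alternative STAG subunits, and their chromatin differed in layout. Stag1, the longest gene of the set at 360836 bp, had 1.89 regions per 100 kb in at least 2 libraries, the lowest density of the 10 and above 13.2% of the 7339 protein coding genes at least as long as the shortest member. Its promoter region (chr9:100642747-100644271) had folds of 16.3 and 15.5 in the controls against 16.5 and 14.4 in the KO libraries, with a difference of 0.01 ± 0.13 (limma adjusted p = 0.996). Its strongest other region (chr9:100910446-100910770) had folds of 4.55, 3.86, 5.21 and 3.67, with a difference of 0.15 ± 0.30 (limma adjusted p = 0.937). Another internal region (chr9:100917203-100917422) had folds of 5.20, 6.23, 5.54 and 2.85, where KO 2 alone was low (difference −0.44 ± 0.32, limma adjusted p = 0.793).

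Stag2 (chrX:42149297-42277186) was taken from the gene table, so its promoter region was the strongest one within 1000 bp of a gene end (chrX:42148739-42149367). Its fold was 7.66 and 8.81 in the controls against 8.73 and 9.95 in the KO libraries. The raw folds overlapped because control 2 exceeded KO 1, while after normalization both KO values lay above both controls. The difference of 0.28 ± 0.21 was the highest among the promoter regions, with a 95% interval from −0.17 to 0.73 and a limma adjusted p of 0.80. More open stretches lay downstream, at chrX:42149905-42151078 (folds 7.78, 7.02, 6.19 and 6.67) and chrX:42151993-42152339 (5.43, 6.57, 5.44 and 5.42). After normalization the genotypes overlapped at both. A further region (chrX:42165582-42165703) had 3.90 and 4.15 in the controls against 3.26 and 2.44 in the KO libraries. Both KO values were lower there, and the difference of −0.45 ± 0.27 (limma adjusted p = 0.745) was the lowest of all shared regions at the 10 genes.

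Nipbl (chr15:8289824-8465315), the cohesin loader, held the most regions, 36, of which 8 were in all 4 libraries and 22 in 1 library. It had no region within 1000 bp of either gene end, and no promoter region was defined. Starts inside the gene body were not searched for, and whether an internal region holds the Nipbl promoter was not tested. Of the 8 shared regions, 6 lay between 8433203 and 8451396. The widest of them (chr15:8443539-8445234), over the predicted gene LOC102634078, had folds of 11.1, 11.2, 11.1 and 9.25. The strongest by mean percentile (chr15:8451150-8451396) had folds of 10.4, 12.6, 10.8 and 10.2, with a difference of −0.03 ± 0.18 (limma adjusted p = 0.981). A weaker region between them (chr15:8445897-8446225) had 2.30 and 2.93 in the controls against 3.56 and 3.55 in the KO libraries. Both KO libraries were higher there, and its difference of 0.48 ± 0.26 was the largest increase among the shared regions, with the lowest unadjusted p of the set, 0.0794, and a limma adjusted p of 0.696. At chr15:8445392-8445633 just before it, the fold went from 9.38 and 9.59 in the controls to 8.40 and 7.70 in the KO libraries, so adjoining regions moved in opposite directions and neither passed the test.

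Wapl, Pds5a and Pds5b act in the release of cohesin. The Wapl promoter region (chr14:34673297-34674457) covered the start of Wapl and lay within the lncRNA gene 5830448L01Rik, with folds of 19.6, 17.6, 20.7 and 17.5. The second library of each genotype was the lower one, and the difference was 0.08 ± 0.11 (limma adjusted p = 0.914). It was the only Wapl region in all 4 libraries. The Pds5b promoter region (chr5:150673305-150674675) lay within the overlapping protein coding gene Gm40353. It had folds of 20.2 and 18.9 in the controls against 18.1 and 19.6 in the KO libraries, with a difference of −0.02 ± 0.11 (limma adjusted p = 0.981). An internal Pds5b region (chr5:150717868-150718107) had folds of 10.4, 10.4, 10.8 and 8.15, where KO 2 alone was low. Another (chr5:150702607-150703040), over the upper end of Gm40353, stood at 4.88 and 4.74 in the controls against 7.49 and 4.48 in the KO libraries. KO 1 alone was high in the raw folds, both KO values were the higher ones after normalization, and the difference was 0.37 ± 0.30 (limma adjusted p = 0.819).

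Pds5a (chr5:65605719-65698236) had its promoter region at chr5:65697176-65698824, with folds of 12.7 and 13.0 in the controls against 11.8 and 11.1 in the KO libraries. Both KO libraries were lower, by less than the fitted error (difference −0.09 ± 0.16, limma adjusted p = 0.932). A region just inside the gene (chr5:65696808-65697026) went the other way, with 4.51 and 5.23 in the controls against 6.14 and 5.89 in the KO libraries. The 2 KO values were above both controls, and the difference was 0.43 ± 0.28 (limma adjusted p = 0.756). Only these 2 of the 31 Pds5a regions were in all 4 libraries. The other 29 had folds of 2.28 to 5.34, and 19 of them were seen in 1 library.

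Over the set, 34 of the 180 regions were in all 4 libraries, 17 in 3, 19 in 2 and 110 in 1. That put 61.1% of the regions in a single library, against 59.3% of all regions, and 18.9% in all 4 libraries, against 23.8% of all regions. Among regions found in 2 or more libraries, 48.6% of those at the 10 genes and 58.4% of all were in every library. The order of these shares turned under some of the alternative settings given at the end, so it depends on how peaks are counted. Stag2 had the highest share in all 4 libraries with 6 of 15, and Pds5a the lowest with 2 of 31. The median fold was 7.58 in the regions of all 4 libraries and 2.67 in those of a single library, with median widths of 366.5 and 92.0 bp. The density of regions had a median of 7.40 per 100 kb, against 7.79 over the 7339 protein coding genes of similar or greater length.

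**Figure D2:**
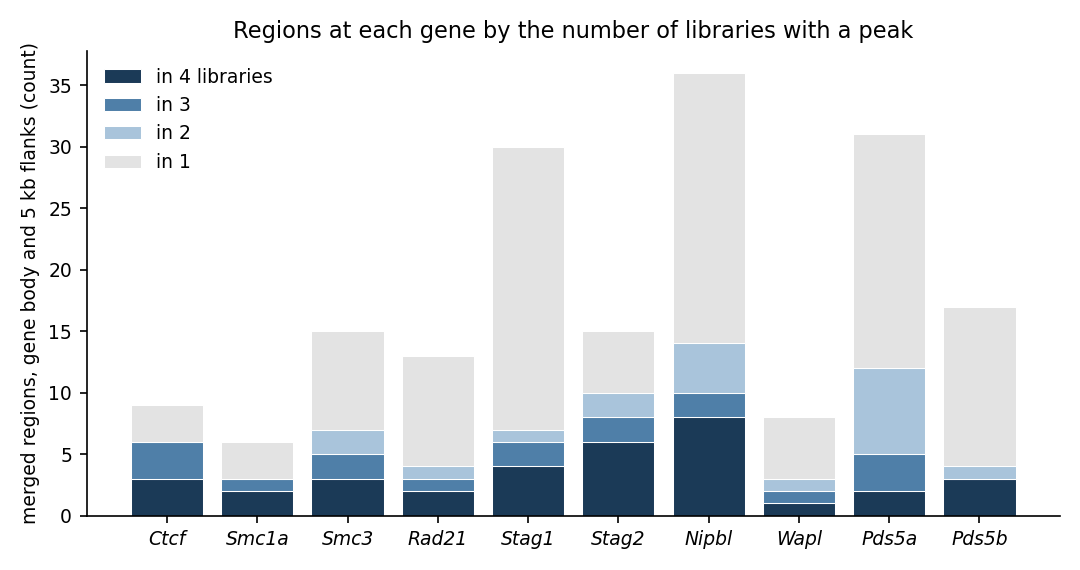
Number of merged regions at each gene (vertical axis, count, from 0), stacked by how many of the 4 libraries had a peak. Nipbl (36), Pds5a (31) and Stag1 (30) held the most regions, and most of these were seen in 1 library, while only 1 to 8 regions per gene were seen in all 4.

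Each library alone had a peak in 84 and 75 of these regions in the controls against in 85 and 91 in the KO libraries. The KO numbers were the higher ones, but with 2 libraries against 2 the exact two-sided permutation test gave p = 0.333, the smallest it can give. The bases covered ran the other way, 26318 and 25006 in the controls against 24181 and 24600 in the KO libraries (exact permutation p = 0.333). As a share of all bases that the same library covered, they were 0.0498% and 0.0511% for control and 0.0568% and 0.0555% for KO, so the direction turned once the total of each library was counted in. The summits numbered 152 and 138 against 145 and 144 (p = 1.0 by the same exact test). The KO intervals were narrower throughout the genome, with a median of 140 and 157 bp against 179 and 183 bp in the controls, and the part of interval width in these counts was not tested.

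The regions of a single library were weaker in the median than the shared ones, with percentiles in their own library of up to 64.4. They had folds of 2.07 to 4.23 and a −log10 q of at most 4.27. Their folds fell on few values, with 8 or 9 distinct ones per library to 2 decimals, and the smallest spacing between repeated values was 0.325 in control 1, 0.297 in control 2, 0.325 in KO 1 and 0.407 in KO 2. In KO 2, 13 of 37 such regions shared the fold of 2.44. Repeated values held 26 of 29 such regions in control 1, 11 of 15 in control 2, 25 of 29 in KO 1 and 31 of 37 in KO 2. A difference between neighbouring weak values was therefore often 1 step, though other values lay closer together. The smallest step was widest in KO 2, while the median step was widest in control 2 (0.593).

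Peaks of 1 genotype only were few. Of the 70 regions found in 2 or more libraries, 3 (4.29%) had a peak in both controls and in neither KO library, against a background of 6.05% over the 137553 such regions of the genome. A further 4 (5.71%) had a peak in both KO libraries and in neither control, against a background of 3.47%. The other 12 regions of 2 libraries paired 1 control with 1 KO library. All 7 regions were weak, with folds of 2.28 to 3.42, a −log10 q of 0.397 to 2.79 and percentiles from 5.89 to 50.8. These counts rest on every library. Without control 1 or control 2 the number only in control became 18 (29.0%, against 37.6% of all regions) or 32 (53.3% against 52.4%). Without KO 1 or KO 2 it became 10 (16.7% against 14.4%) or 8 (13.3% against 11.3%). The number only in KO became 41 (68.3% against 50.5%) or 33 (55.0% against 48.3%) without KO 1 or KO 2, and 5 (8.07% against 7.30%) or 8 (13.3% against 7.02%) without control 1 or control 2. A genotype left with 1 library needs a peak in that library alone, which raises its counts by construction.

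The 3 regions only in control were 1 in Stag2 and 2 at Pds5a. The Stag2 region (chrX:42170923-42171100) had folds of 2.93 in control 1 and 2.37 in control 2. At Pds5a, chr5:65601241-65601836 had folds of 3.18 and 3.32, and chr5:65606492-65606684 had 2.28 in both control libraries. The 4 regions only in KO were 1 in Smc3, 1 in Nipbl and 2 at Pds5a. The Smc3 region (chr19:53608911-53609089) had folds of 2.93 in KO 1 and 3.26 in KO 2, but a peak of control 1 began right after it without overlap. The Nipbl region (chr15:8411997-8412177) had 3.26 and 2.44. At Pds5a, chr5:65602211-65602459 had 2.56 and 3.42, and chr5:65605872-65606042 had 2.28 and 2.40.

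Pds5a thus held 4 of the 7 regions, 2 of each direction, within 5444 bp at the far end of the gene. Along this stretch the 2 regions only in KO lay between the 2 only in control, and it held 7 regions in all, none of them in more than 2 libraries. None of the 7 reached a −log10 q of 5 in any library. With regions up to 200 bp apart joined, an alternative chosen after seeing the data, the regions only in KO fell from 4 to 2 and those only in control stayed at 3.

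**Figure D3:**
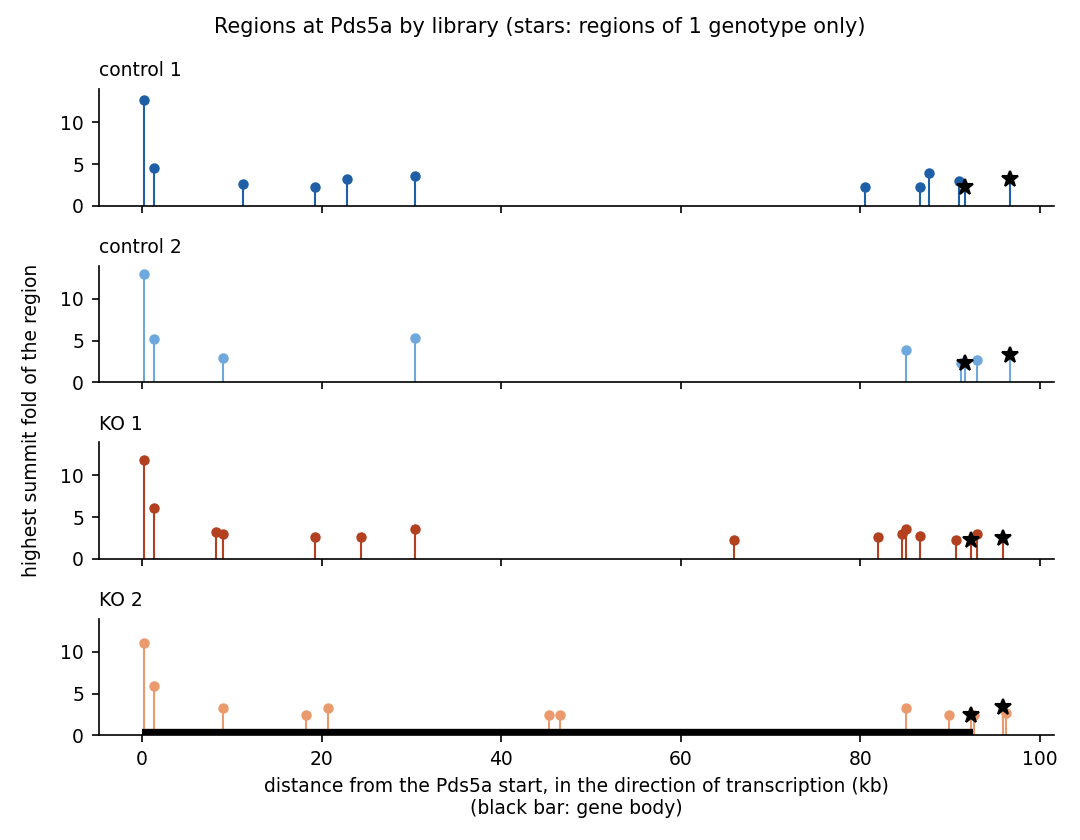
Highest summit fold (vertical axis, ratio to the library's background, from 0) of each Pds5a region against the distance of its middle from the gene start (horizontal axis, kb, in the direction of transcription), in 1 panel per library, with the gene body as a black bar. The promoter region at the left reaches 11.1 to 13.0 in all 4 libraries, while the regions of 1 genotype, drawn as stars, lie together past 90 kb at folds of 2.28 to 3.42.

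Missing peaks were unevenly spread over the libraries. Of the 17 regions seen in 3 libraries, 7 (41.2%) lacked KO 2, 5 lacked KO 1, 4 lacked control 1 and 1 lacked control 2. KO 2 was also the missing library in 41.2% of the regions of 3 libraries over the genome. At all 8 promoter regions KO 2 had the lowest −log10 q, for example 88.8 against 149 to 159 at Ctcf and 72.8 against 114 to 148 at Smc1a. It had the lowest percentile at 1 of the 8 and the lowest raw fold at 5 of the 8. Its raw fold was also lowest at 19 of the 34 shared regions (55.9%), against 38.6% of all regions in 4 libraries. Its −log10 p was lowest at 24 of the 34 shared regions (70.6%) and at 60.3% of all regions in 4 libraries. KO 2 had the fewest summits, and −log10 p and q rise with read depth, which is unknown. These scores were therefore compared between genotypes only among the alternatives.

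The 34 regions of all 4 libraries were compared between the genotypes with limma on the log2 of the quantile normalized fold, fitted and adjusted over all 80271 regions with a peak in every library. None of the 34 passed an adjusted p of 0.05, and none of all 80271 did (0.0%). With 2 libraries per genotype and folds in place of reads, this does not show that accessibility was equal. The study, which tested reads with edgeR, reported peaks higher and peaks lower in KO. At an unadjusted p under 0.05 limma had 0 of the 34 and 6123 (7.63%) of all regions. The adjusted p of the 34 ran from 0.696 to 0.996. Their median difference, KO minus control, was 0.01 on the log2 scale, against 0.00 over all regions, and the differences ran from −0.45 to 0.48. KO values were higher in 19 and lower in 15. Both KO libraries lay above both controls in 5 of the 34, against 19.1% of all regions, and below both in 4, against 18.6%, while 25 overlapped.

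**Figure D4:**
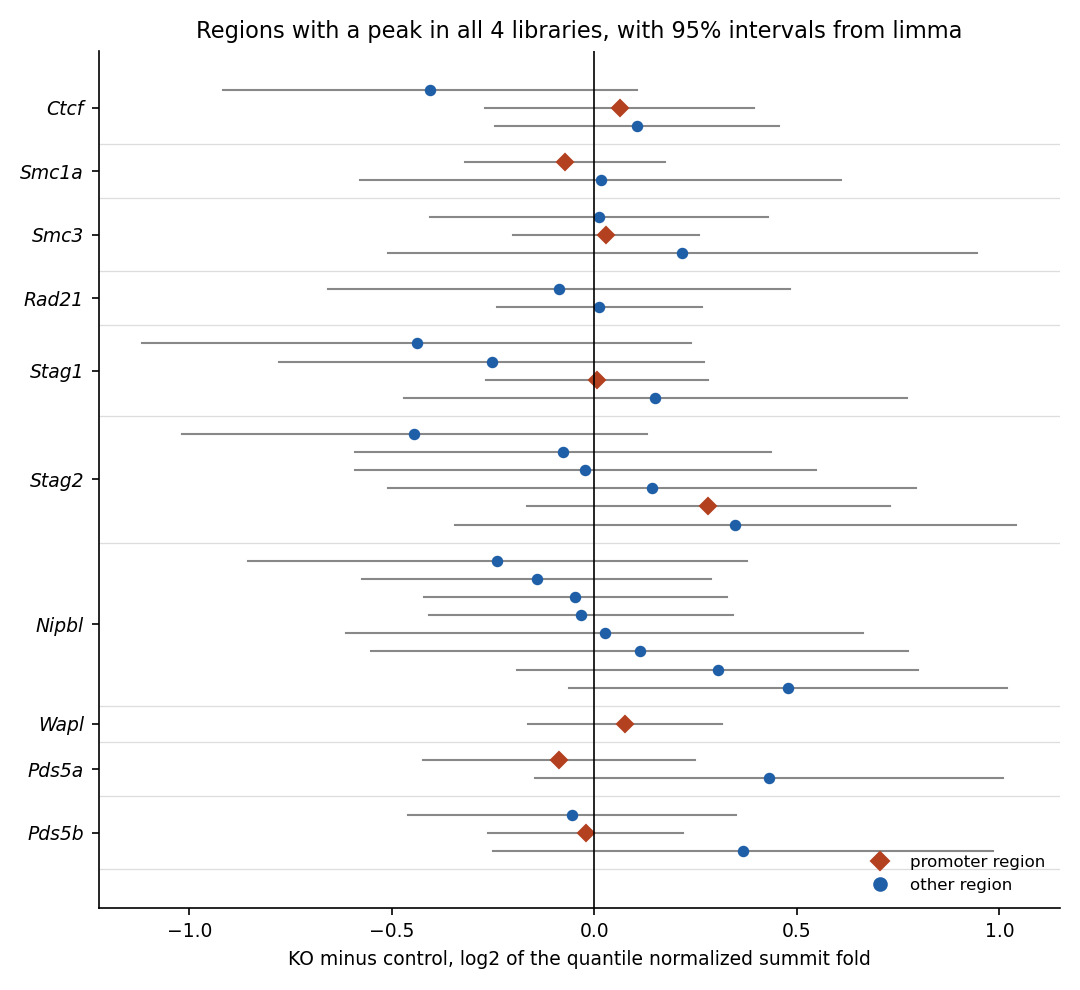
KO minus control difference of each region with a peak in all 4 libraries (horizontal axis, log2 of the quantile normalized fold), grouped by gene, with lines for the 95% intervals from limma and red diamonds for promoter regions. All 34 intervals cross 0, those of the promoter regions being the narrower ones in most genes.

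At the 8 promoter regions the differences ran from −0.09 at Pds5a to 0.28 at Stag2, and their 95% intervals from −0.42 to 0.73 at the outermost. Differences of this size could not be told from 0, and the intervals do not show that the promoters were equally open. For Smc3, the interval ran from −0.20 to 0.26, the narrowest of the 8. Weaker regions were less well measured, and at the internal Stag1 region described above the interval ran from −1.12 to 0.24.

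Genes of the wider pathway were listed for comparison. Of 15 other cohesin pathway genes, which include the loader partner Mau2, the acetyltransferase genes Esco1 and Esco2, separase (Espl1) and securin (Pttg1), 12 had a promoter window. All 12 were open in every library, with a median percentile of 98.2. Of their 61 regions found in 2 or more libraries, 3 (4.92%) had peaks in control alone, at Mau2, Ddx11 and Wiz, and 3 (4.92%) in KO alone, at Sgo1, Ddx11 and Yy1. The 13 genes of condensin and the SMC5/6 complex had 10 of 11 promoters open in every library, a median percentile of 98.5, and 3 of 73 such regions (4.11%) only in each genotype. Meiotic relatives of the members were the last list. Of 4 with a promoter window, 3 were open in every library, from Smc1b at 62.5 through Rec8 at 87.9 to Stag3 at 97.9. Among 18 such regions, 2 (11.1%) had peaks in KO alone and 0 in control alone, both of the former at Ctcfl, the germline relative of Ctcf. Over all such regions of the genome the shares were 3.47% in KO alone and 6.05% in control alone.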

How the data were processed

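Cells were processed for ATAC-Seq in 2 control and 2 KO libraries. Per the labels, the submitters' processing notes name Bowtie2, MACS2 and mm10, with no versions, and filters or shifts of reads for the transposase are not given in the sources used here. The authors called peaks per library and deposited 1 row per summit with a fold (ratio to background), −log10 p and −log10 q, and a score that was not used. No read counts were available here, so depth and precision per library are unknown, and the edgeR test of the study, which needs reads, could not be run.

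Intervals overlapping by 1 bp were merged (Python 3.11.15, pandas 2.3.3, numpy 2.4.6). A summit given as a position instead of an offset, in 253 to 492 rows per list, was read as such. Genes and promoters were taken from RefSeq tables (GRCm38.p6). A promoter region overlaps the window from 250 bp before to 50 bp after the gene start or, with no window, is the strongest region within 1000 bp of a gene end. Regions in all 4 libraries were tested with limma 3.58.1 (R 4.3.3, eBayes with trend, Benjamini-Hochberg over all regions). The fit was checked on simulated data with changes larger than any seen at the 10 genes. That check does not show whether changes of the size seen there would be found. Exact permutation tests over the 4 libraries are two-sided.

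All 10 genes are named, each with its promoter region and strongest other region where it had them and its regions of 1 genotype, and other shared regions were named after their values were seen. The genes and gene lists were chosen with earlier results of these data known. Alternatives were a −log10 q minimum of 5 (also for presence alone), lists of equal length, the 100000 strongest summits, coverage of 0.5 of a region, flanks of 0 or 1000 bp, median centring, −log10 p in place of the fold, log2(fold + 1), a mean fold of at least 4, the replicate number as a block and leaving out each library. Joining regions up to 200 bp apart was added after seeing the data.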

Additional observations from a re-analysis of the deposited data

How the results depend on the processing

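The number of regions at the 10 genes only in control moved from 3 to 0 with a −log10 q of at least 5, also when asked for presence alone, and with the 100000 strongest summits, and to 8 with coverage of 0.5 of the region (14.3%, against 11.3% of all regions). Over all regions the share only in control was 7.02%, 0.0647% and 2.75% under the first 3. The number only in KO moved from 4 to 0, 0 and 1 under the first 3 of these, and to 2 with regions up to 200 bp apart joined, chosen after seeing the data (3.08%, against 3.75% of all regions). Over all regions the share only in KO was 0.807%, 0.00654% and 3.11% under the first 3. The number in all 4 libraries moved from 34 to 21 under each of these 3, which leave fewer peaks by construction. Leaving out 1 library gave 8 to 32 only in control and 5 to 41 only in KO. The labels give the same-numbered libraries only a number in common. The deviations of control 1 and KO 1 from their genotype means had a correlation of 0.0047 over regions. Whether same-numbered libraries shared a preparation or run is not given and was not tested. With the replicate block 0 of the 34 regions were called, as without it, and the median stayed at 0.01, while over all regions limma called 18 higher and 36 lower in KO in place of 0. Median centring moved the median over all regions from 0.00 to 0.05 and called 1 region outside the 10 genes, and −log10 p in place of the fold also called 1. No region of the 10 genes was called under any alternative.

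The promoter and strongest-region differences, none of them called, changed sign in 14 values. With −log10 p in place of the fold, Ctcf became −0.0287, Stag1 −0.0326 and Nipbl 0.01999, and with median centring Smc1a became 0.0102, Pds5b 0.0678 and Nipbl 0.0019. Leaving out 1 library gave −0.12 to 0.18 at Smc3, −0.0312 to 0.0423 at Stag1, −0.126 to 0.0855 at Pds5b, −0.0853 to 0.11 at Rad21 and −0.18 to 0.11 at Nipbl. The cause was not tested. Unknown depth limits the weak regions most, where 1 step of the fold often separates neighbouring values.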
